A study of Rattus norvegicus with 6 samples.

Results

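The acyl-CoA synthetases described here were 10 genes, Acsbg1, Acsl1, Acsl3, Acsl4, Acsl5, Acsl6, Acsm2, Acsm3, Acss1 and Acss2, measured in the renal cortex of rats given the anti-inflammatory drug phenylbutazone or its vehicle. They were found as the probes whose accession leads to one of these RefSeq rat symbols, which gave 19 of the 61537 non-control probes on the array. Of the 10 genes, 9 could be tested, among 29938 genes tested in all. The genes were chosen with the difference between the groups already seen, Acsbg1 for its size, so that their differences are given as a description, with a standard error (SE) and no test.

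The animals were 6 male Sprague-Dawley rats of the stock Crl:CD(SD), an outbred laboratory stock, 5 weeks old at purchase. For 4 weeks 3 of them received corn oil, the vehicle control, and 3 received phenylbutazone at 200 mg/kg/day. Both groups are wild-type animals on the same basal diet, and their treatment differs by the drug at 1 dose and 1 time. The 3 arrays of each group carry RNA of different animals, biological replicates per the series' design text. Each value is a log2 level, on which 0 is the 75th percentile of the array and 1 unit is a doubling. It can be compared between arrays for one probe, and not between probes.

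Acyl-CoA synthetases join a fatty acid to coenzyme A, the activation step that precedes its oxidation, elongation, or incorporation into lipids. The families differ in the chain length they prefer: the Acss enzymes take acetate and other short acids, the Acsm enzymes medium chains, the Acsl enzymes long chains, and the bubblegum enzyme Acsbg1 long and very long chains. The cells of the proximal tubule, which make up most of the renal cortex, draw much of their energy from fatty acid oxidation, and Acsbg1 is best known from brain, adrenal gland and gonads.

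The 75th percentile intensity of the arrays ran from 891 to 1003, and 65.2% to 68.4% of the probes were well above background on each array. Vehicle arrays 1 and 2 lay on slide 1, and vehicle array 3 lay on slide 2 with the 3 phenylbutazone arrays, and the scan day divides the arrays in the same way. Vehicle 3 stood apart. Over the 6329 genes with at least 2 tested probes, the dimmest probe stood higher on it than the brightest, each set against its own level on the other arrays, by a median of 0.25 log2 units and in 76.0% of genes. On the other 5 arrays that median was -0.068 to -0.034, with 34.8% to 40.6% of genes above 0. Differences of the members are therefore also given on slide 2 alone, where this array is the only vehicle. Of 12 proximal tubule markers 12 could be tested, and their median difference between the groups was 0.020.

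Promoters of all members that have one were searched for motifs, as a description. Printed below are those of Acsbg1 and of Acsl4 and Acsl5, which differed between the groups in the opposite direction. A link between promoter sequence and these differences was not tested. Of the 10 genes 9 have a promoter in the RefSeq table used, on the assembly GRCr8, each running from 250 bases before the annotated start to 50 bases after it. Acss1 is not among them. The promoter of Acsbg1 lies at chr8:63943229-63943528 on the minus strand, that of Acsl4 at chrX:110803212-110803511 on the minus strand and that of Acsl5 at chr1:264294601-264294900 on the plus strand. They are printed 5′ to 3′ on the strand of the gene, with capitals for matches to the motifs named after them.
Acsbg1: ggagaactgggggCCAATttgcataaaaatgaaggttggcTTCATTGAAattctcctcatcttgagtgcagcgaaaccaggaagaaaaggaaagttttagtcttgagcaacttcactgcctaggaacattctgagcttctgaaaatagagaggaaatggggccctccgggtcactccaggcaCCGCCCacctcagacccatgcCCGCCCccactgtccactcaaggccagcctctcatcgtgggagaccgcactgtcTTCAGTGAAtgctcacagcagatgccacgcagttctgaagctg
Acsl4: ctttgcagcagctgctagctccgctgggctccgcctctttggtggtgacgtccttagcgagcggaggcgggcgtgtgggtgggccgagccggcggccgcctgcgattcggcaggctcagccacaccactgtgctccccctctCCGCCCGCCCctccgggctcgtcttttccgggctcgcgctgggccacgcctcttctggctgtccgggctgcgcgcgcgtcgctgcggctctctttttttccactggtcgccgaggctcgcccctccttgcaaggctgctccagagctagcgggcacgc
Acsl5: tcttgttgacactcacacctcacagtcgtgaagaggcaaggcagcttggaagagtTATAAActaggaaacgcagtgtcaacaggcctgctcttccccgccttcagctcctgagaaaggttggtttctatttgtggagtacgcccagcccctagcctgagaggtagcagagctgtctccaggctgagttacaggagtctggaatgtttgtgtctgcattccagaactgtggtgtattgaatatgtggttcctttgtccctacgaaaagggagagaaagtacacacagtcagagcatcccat
The motifs searched, on both strands, were the E-box CACGTG, the GC box GGGCGG, the CCAAT box CCAAT, the TATA box TATAAA, the nuclear receptor hexamer AGGTCA, a single copy of the unit that many of these receptors bind as a pair,, the sterol response element TCACNCCAC and the STAT site TTCNNNGAA.

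The Acsbg1 promoter held 2 matches to the STAT site, the sequence recognised by the STAT family of cytokine-activated factors. The first was TTCATTGAA, beginning 210 bases before the start, and the second TTCAGTGAA, beginning 7 bases after it. Among 33469 rat promoters of this length 8.87% held the motif, and 0.547% held 2 or more matches. The cut of 2 equals the count in Acsbg1 and was used for this motif only, so nothing is read from the second share. Acsl6 held 1 match and the other 7 members with a promoter held none. The Acsbg1 promoter also had 2 GC boxes, both read on the opposite strand, 68 and 47 bases before the start, and 1 CCAAT box. Such matches describe letters in this window and not bound sites.

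The other members had promoters of different composition. Acsl3 and Acsl4 were GC-rich, with 72.7% and 70.7% G or C and 39 and 33 CpG dinucleotides, and Acss2, with 64.0%, held 5 GC boxes. Acsbg1, with 52.3% and 7 CpG, stood near the median of all promoters, 51.7% and 7 CpG. Acsl1, Acsm2 and Acsm3 were AT-rich, at 40.7%, 45.0% and 44.7%. A GC box was present in 5 of the 9, against 33.1% of all promoters, and a CCAAT box in 5 of 9, against 37.5%. The TATA box matched in 1 of 9, Acsl5, against 14.2%, and the nuclear receptor hexamer in 1 of 9, Acsm3, against 16.2%. The E-box and the sterol response element matched in 0 of 9, against 6.42% and 1.12% of all promoters.

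Acsbg1, the bubblegum family enzyme, was the member with the largest difference. Its log2 level was 2.84, 2.85 and 3.04 with vehicle and 1.28, 1.38 and 1.19 with phenylbutazone, in the order of replicates 1 to 3, as for all genes that follow. Every phenylbutazone value lay below every vehicle value, with a gap of 1.46 between the nearest pair. The group means were 2.91 ± 0.11 and 1.28 ± 0.096 (SD, n = 3), a difference of -1.63 ± 0.11 (SE), or 3.09-fold lower with phenylbutazone. Of the 29938 genes tested, 42 had a lower difference. The gene had 1 probe, well above background on all 6 arrays. On slide 2 alone the difference was -1.76, and without each array in turn it ran from -1.68 to -1.56. Cortex is a mixture of cell types, and in such bulk samples fewer cells of a type and less RNA per cell cannot be told apart.

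**Figure D1:**
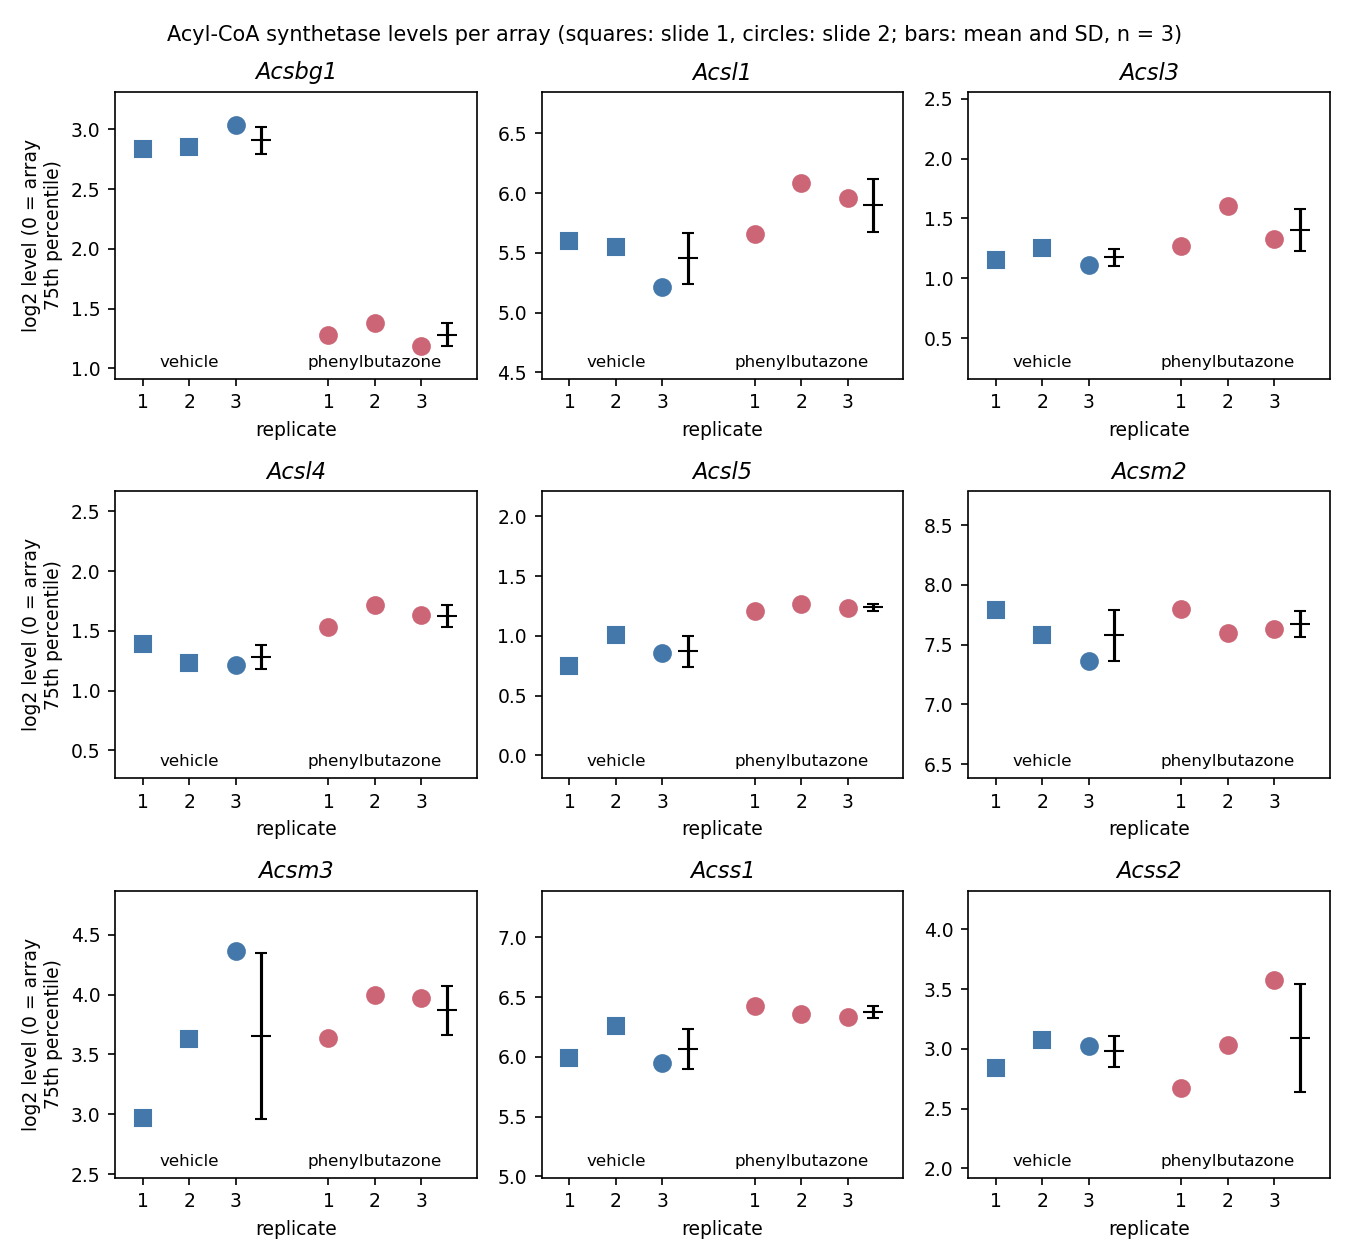
Log2 level of each tested acyl-CoA synthetase on each array, 0 being the 75th percentile of the array, with replicates 1 to 3 of vehicle in blue and of phenylbutazone in red, squares for slide 1 and circles for slide 2, and bars for the mean and SD of 3 arrays. Every panel spans the same number of log2 units: Acsbg1 is 1.63 lower with phenylbutazone, while Acsl1, Acsl3, Acsl4, Acsl5 and Acss1 sit slightly higher without overlap and Acsm2, Acsm3 and Acss2 overlap.

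The Acsl enzymes, which activate long-chain fatty acids, stood a little higher with phenylbutazone in all 4 members that could be tested. Acsl1, an abundant long-chain synthetase of outer mitochondrial and endoplasmic reticulum membranes, had levels of 5.60, 5.55 and 5.21 with vehicle and 5.65, 6.08 and 5.96 with phenylbutazone. The difference was 0.44 ± 0.16, or 1.36-fold higher, and only 0.055 separated the groups, phenylbutazone 1 lying next to vehicle 1. Vehicle 3 was the lowest array: on slide 2 alone the difference was 0.69, and without each array it ran from 0.32 to 0.57.

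Acsl4, which prefers arachidonate and related polyunsaturated acids, had levels of 1.39, 1.23 and 1.22 with vehicle and 1.53, 1.72 and 1.63 with phenylbutazone. The groups lay apart by 0.14, and the difference was 0.35 ± 0.10, or 1.27-fold higher, with 0.41 on slide 2 alone.

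Acsl5, found on mitochondria and endoplasmic reticulum, had levels of 0.75, 1.01 and 0.86 with vehicle and 1.21, 1.27 and 1.24 with phenylbutazone. The 3 phenylbutazone arrays lay within a narrow band above all vehicle arrays, with a gap of 0.20. The difference was 0.37 ± 0.10, or 1.29-fold higher, and it was 0.38 on slide 2 alone and 0.31 to 0.44 without each array.

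Acsl3, the long-chain synthetase of lipid droplets, had levels of 1.15, 1.26 and 1.11 with vehicle and 1.27, 1.60 and 1.33 with phenylbutazone. The groups were separated by 0.015 only, between vehicle 2 and phenylbutazone 1, and phenylbutazone 2 stood above the rest. The difference was 0.23 ± 0.12, with 0.29 on slide 2 alone and 0.13 to 0.29 without each array. Acsl6, known from brain and red cell precursors, had 2 probes, and neither was well above background on any of the 6 arrays, so it was not tested.

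The medium-chain enzymes did not separate the groups. Acsm2, a mitochondrial matrix enzyme of kidney and liver, had levels of 7.79, 7.58 and 7.36 with vehicle and 7.80, 7.59 and 7.63 with phenylbutazone, and a difference of 0.095 ± 0.14, with 0.31 on slide 2 alone and -0.013 to 0.20 without each array. Acsm3 had levels of 2.97, 3.63 and 4.36 with vehicle and 3.64, 4.0 and 3.97 with phenylbutazone. Its vehicle arrays covered a wider range than the phenylbutazone arrays, with an SD of 0.70 against 0.20, and contained them. The difference of 0.22 ± 0.35 depended on single arrays: it was -0.12 without vehicle 1, 0.57 without vehicle 3 and -0.49 on slide 2 alone.

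Of the enzymes that activate acetate, the mitochondrial Acss1 had levels of 5.99, 6.26 and 5.95 with vehicle and 6.43, 6.36 and 6.34 with phenylbutazone. The groups lay apart by 0.076, vehicle 2 being the nearest, and the difference was 0.31 ± 0.12, or 1.24-fold higher, with 0.43 on slide 2 alone. The cytosolic and nuclear Acss2 had levels of 2.84, 3.08 and 3.02 with vehicle and 2.67, 3.03 and 3.57 with phenylbutazone. Phenylbutazone held both the lowest and the highest array, so the groups overlapped. The difference of 0.11 ± 0.23 was -0.13 without phenylbutazone 3, 0.32 without phenylbutazone 1 and 0.066 on slide 2 alone.

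In all, 8 of the 9 tested members had a difference above 0 and 1 below, with a median of 0.23 against 0.015 over all genes. All phenylbutazone values were above all vehicle values for 5 of 9, against 12.1% of all genes, and below them for 1 of 9, Acsbg1, against 9.39%. Nothing is read from these shares, since the members were chosen on the same contrast. Among all genes that lay apart, 56.4% were higher with phenylbutazone, and 71.7% with scaling to the array median, which moved the median of all genes to 0.063. By limma, 0 genes, 0% of those tested, passed an adjusted p of 0.05, and 3657, or 12.2%, had an unadjusted p under 0.05. Without vehicle 3, the array that stood apart, 814 genes passed, 2.72% of all, with 1 member (Acsbg1) and 0 genes of the pathway lists below among them. The vehicle arrays left then all lie on slide 1 and the phenylbutazone arrays on slide 2, so that drug, slide and scan day cannot be told apart in that count.

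Of the 19 probes, 17 were tested, and 12 of these belonged to the 4 genes with more than 1 tested probe, Acsl1, Acsl4, Acss1 and Acss2. For Acsl1, Acsl4 and Acss1 every probe was higher with phenylbutazone over the 6 arrays, whereas the second probe of Acss2 had a difference of -0.0081 ± 0.23 (SE from the fit of single probes), against 0.11 for the probe used. The brightest Acsl1 probe, A_43_P14632, was the one used above. Its 3 dimmer probes had smaller differences, 0.25 ± 0.25 for A_44_P505025, 0.19 ± 0.27 for A_44_P1017662 and 0.27 ± 0.28 for A_44_P172489, and their groups overlapped.

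Vehicle 3 divided the probes of one gene. Against the mean of vehicle 1 and 2, it differed by -0.36 on the brightest Acsl1 probe but stood higher by 0.61, 0.83 and 0.88 on the 3 dimmer ones. On slide 2 alone the brightest probe therefore stood at 0.69, and the other 3 at -0.15, -0.36 and -0.32. So the direction of Acsl1 within slide 2 differed between its probes, although all probes target 1 transcript record. In Acss1 the dimmest probe, A_44_P444039, was 0.72 higher on vehicle 3 than on vehicle 1 and 2 and had -0.22 on slide 2 alone, against 0.43 for the brightest. Its other probes had differences of 0.21 ± 0.13, with the groups apart, and 0.12 ± 0.13, with overlap.

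Acsl4 kept its direction with both probes. The second probe, A_44_P375004, had levels of 0.15, -0.18 and 0.58 with vehicle and 0.72, 0.75 and 0.73 with phenylbutazone. The groups lay apart on it too, with a difference of 0.55 ± 0.20 over 6 arrays and 0.15 on slide 2 alone. Acsbg1, Acsl3, Acsl5, Acsm2 and Acsm3 have 1 probe each, so no second probe shows how vehicle 3 bears on them.

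**Figure D2:**
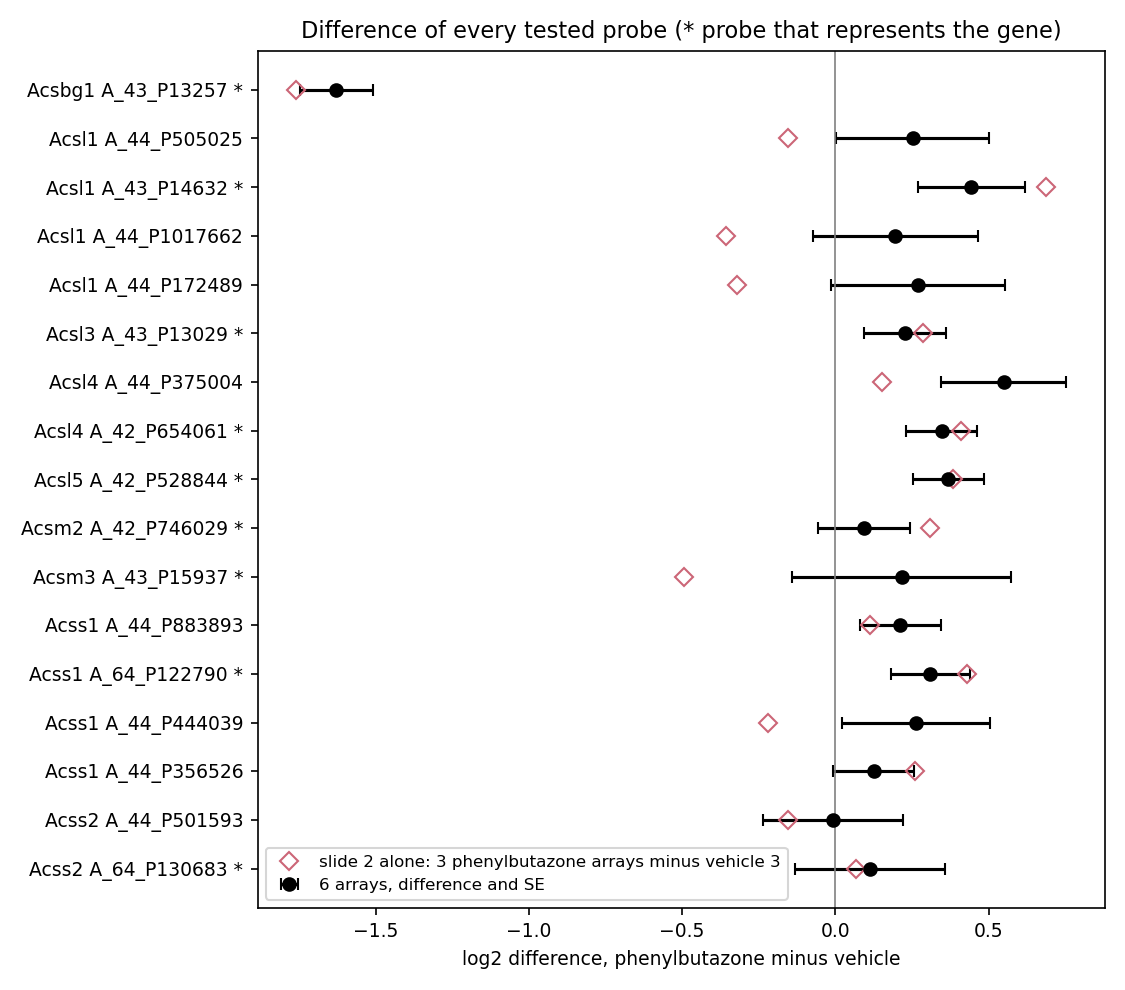
Log2 difference, phenylbutazone minus vehicle, of the 17 tested probes, with black points and SE bars for all 6 arrays, open red diamonds for slide 2 alone and an asterisk for the probe that represents its gene. Acsbg1 is far to the left on both measures, and 3 of the 4 Acsl1 probes move across 0 on slide 2 alone.

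**Figure D3:**
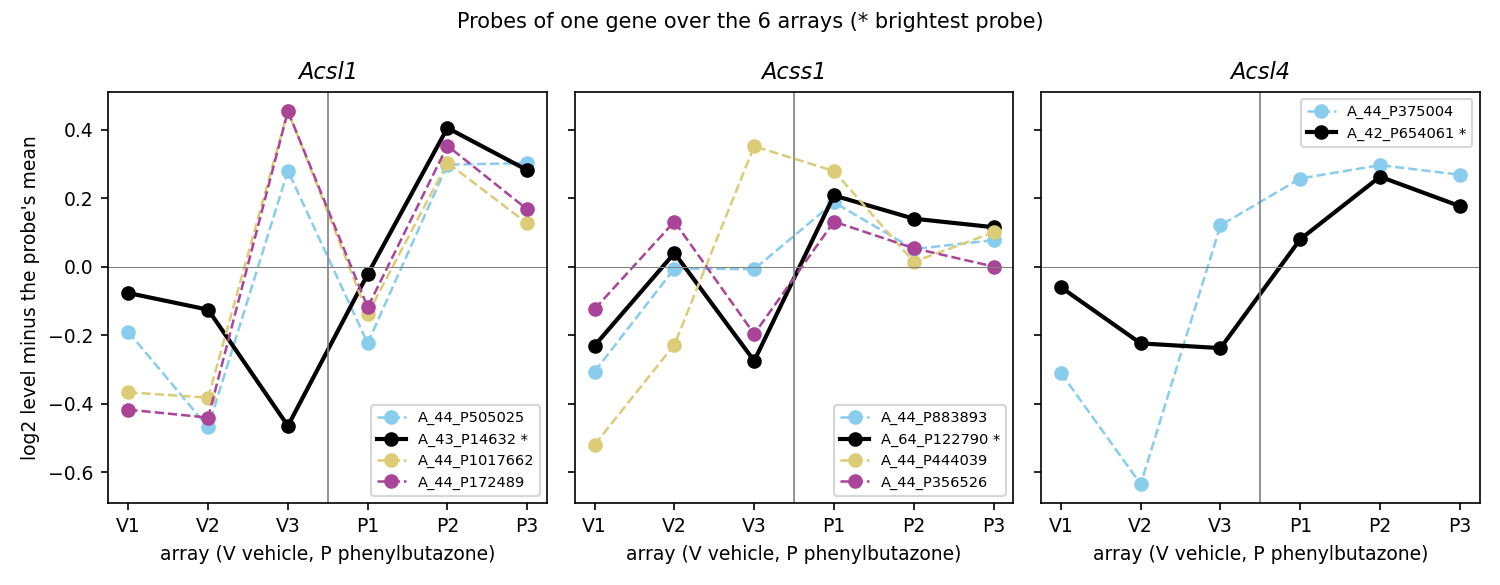
Log2 level of each probe of Acsl1, Acss1 and Acsl4 minus the mean of that probe, over vehicle (V) and phenylbutazone (P) arrays, with a solid black line for the brightest probe and dashed lines for the others. On V3 the brightest Acsl1 probe has its lowest value, while the 3 dimmer probes stand 0.61 to 0.88 above their mean on V1 and V2.

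The genes whose values were most like those of Acsbg1 over the 6 arrays were taken as the 6 highest and 4 lowest Pearson correlations among 12148 other named genes. As the ranking follows the difference between the groups, it is a description and carries no p. Among the most alike were Nhlh1 with r = 0.998, Cish with 0.994, Calca with 0.992, and Mrgprf and Sucla2 with 0.988 each. Of these, only Cish, which encodes an inhibitor of cytokine signalling induced by STAT5, had a difference of the same size, -1.86 ± 0.18, while the other 4 ranged from -0.59 for Mrgprf to -0.24 for Sucla2. Calca was -0.42 by its brightest probe and 0.10 as the mean of its tested probes. The 4 most opposite were Crim1 and Dnajc2 with r = -0.997 each, Rpl7 with -0.996, and Vtcn1. Vtcn1, a B7 family gene, was well above background on 0 vehicle and 3 phenylbutazone arrays and was at least 5.56-fold higher with phenylbutazone. Its place in the ranking rests on vehicle values that have only a bound, so no r is given for it. Crim1 differed by 0.61, Dnajc2 by 0.37 and Rpl7 by 0.23.

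Of the 10 genes so chosen 6 have a promoter in the table, and 1 of the 6, Cish with 4 matches, held the STAT site. Among all promoters the share was 8.87%, and a link between the motif and the differences was not tested. The motif count of Cish was looked at after its values were known. Among the members, the correlation with Acsbg1 was -0.91 for Acsl4 and for Acsl5, -0.85 for Acss1, -0.81 for Acsl1 and -0.69 for Acsl3, and -0.39 for Acsm2, -0.23 for Acss2 and -0.18 for Acsm3, over the same 6 arrays.

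Genes that make, use or carry acyl-CoA were taken in 8 lists of 114 genes, of which 100 were tested. By limma, 0 of the 100 passed the adjusted threshold, against 0% of all genes, and the lowest adjusted p was 0.274, for Cpt2. Among them 16 (16.0%) had an unadjusted p under 0.05, against 12.2% of all genes. The groups lay apart and higher for 13 (13.0%), against 12.1%, and apart and lower for 6 (6.0%), against 9.39%. The median difference was 0.086, against 0.015.

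The other acyl-CoA synthetases were split. Of 14, 12 were tested, 5 with a difference above 0 and 7 below, and their median was -0.043, or -0.19 on slide 2 alone. Slc27a2, which activates and imports very long chain acids, had levels of 6.91, 7.0 and 6.82 with vehicle and 7.15, 7.27 and 7.29 with phenylbutazone. It was 0.33 ± 0.10 higher (limma adjusted p = 0.322), with the groups apart, and 0.31 higher on its second probe. The medium-chain enzyme Acsf2 had levels of -2.17, -1.75 and -1.36 with vehicle and -2.26, -2.60 and -2.88 with phenylbutazone. The difference was -0.82 ± 0.25 (limma adjusted p = 0.330), and its groups lay apart by 0.082. In the 10 others the groups overlapped, from Acsm4 at -0.40 ± 0.36 to Acsm1 at 0.39 ± 0.21. The second bubblegum gene, Acsbg2, was not well above background on any array, and neither was Slc27a6.

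The thioesterases, which undo the reaction by splitting acyl-CoA, had 13 of 14 genes tested, 8 above 0 and 5 below, and a median of 0.12. Acot12, which hydrolyses acetyl-CoA, had levels of 0.27, 0.60 and 0.83 with vehicle and -0.18, -0.12 and 0.047 with phenylbutazone. The groups lay apart, with a difference of -0.65 ± 0.17 (limma adjusted p = 0.285). Acot11 was also apart and lower, at -0.37 ± 0.14, and the peroxisomal Acot8 apart and higher, at 0.21 ± 0.11, though its second probe showed 0.06.

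The carnitine shuttle, which carries long-chain acyl groups into mitochondria, had 8 of 8 genes tested and above 0. Their median was 0.19, or 0.24 on slide 2 alone, against 0.015 and 0.055 over all genes. The mean level of the list, centred on 0 over the arrays, was -0.17 to -0.058 with vehicle. With phenylbutazone it was -0.072, 0.25 and 0.18, so the groups overlapped. Cpt2, which re-forms acyl-CoA inside the mitochondrion, had levels of 3.71, 3.64 and 3.50 with vehicle and 3.95, 4.24 and 4.20 with phenylbutazone. It was the 1 gene of the list whose groups lay apart, with a difference of 0.51 ± 0.12 (limma adjusted p = 0.274). Cpt1a, the gatekeeper of entry in kidney and liver, had a difference of 0.03 ± 0.33, with vehicle values from 2.44 to 3.35.

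Peroxisomal handling of very long chain fatty acids had 13 of 14 genes tested, 8 above 0 and 5 below, and a median of 0.18. The centred mean of the list was -0.10 to -0.017 with vehicle. With phenylbutazone it was -0.20, 0.19 and 0.22, so replicate 1 lay below all vehicle arrays. The peroxisomal thiolase Acaa1b was apart and higher by 0.65 ± 0.18 (limma adjusted p = 0.303), with 0.40 and 0.45 on its other probes. Hsd17b4 was apart and higher by 0.18 ± 0.11, with -0.09 on its second probe.

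Synthesis, elongation and desaturation had 17 of 21 genes tested, a median of 0.067, and 4 genes apart and higher, among them the elongase Elovl6 at 0.37 ± 0.11 (limma adjusted p = 0.310) and 0.39 on its second probe. Mcat and Tecr stood at 0.25 ± 0.099 and 0.24 ± 0.11, but their other probes showed 0.00 for Mcat and 0.03 and 0.02 for Tecr. Glycerolipid acyltransferases had 23 of 24 genes tested, a median of 0.045, and 2 genes apart in each direction. Agpat3 was higher by 0.66 ± 0.17 on its brightest probe (limma adjusted p = 0.296), with 0.26, 0.07 and -0.29 on the others. Lpcat4 stood at -0.59 ± 0.18 and Lpin3 at 0.29 ± 0.12.

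Uptake and binding genes had 11 of 15 tested, a median of 0.013 and 1 gene apart, the acyl-CoA binding protein Dbi at 0.15 ± 0.11. Glycine conjugation, which disposes of medium-chain and aromatic acyl-CoA, had 3 of 4 tested, with a median of 0.099 and overlapping groups in each.

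**Figure D4:**
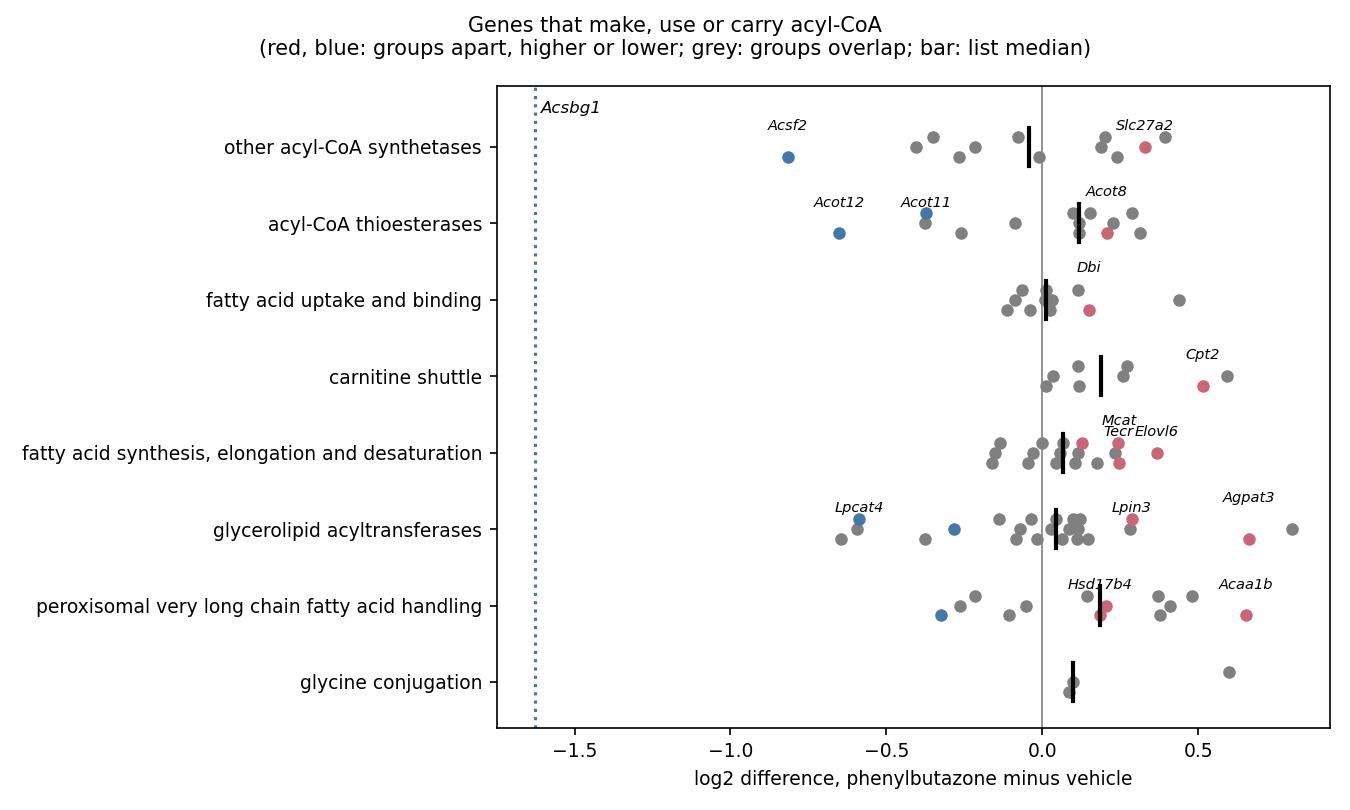
Log2 difference, phenylbutazone minus vehicle, of the 100 tested genes in 8 lists around acyl-CoA, 1 point per gene, red or blue where the groups lie apart and higher or lower, grey where they overlap, with a black bar at the median of each list. All points lie to the right of the dotted line at -1.63, the difference of Acsbg1.

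Markers of other tissues were read beside these values. Adrenal tissue, which lies beside the kidney and is known to express Acsbg1, was measured by 12 cortex markers, of which 7 were tested, with a median difference of 0.15. Among its defining genes, Star, Cyp11b2, Nr5a1 and Akr1b7 were well above background on 0 arrays and Cyp11b1 on 1, whereas Cyp11a1 was on 5 and Cyp21a1, Cyp17a1, Hsd3b1, Mrap and Fdx1 on all 6, with overlapping groups in these 6 genes. The corticotropin receptor gene Mc2r was well above background on 0 vehicle and 3 phenylbutazone arrays. Its bound, taken from group means and without a spread, was 1.51-fold higher with the drug. The phenylbutazone levels were -4.28, -5.5 and -5.17, with replicate 2 close to the vehicle floor of -5.58. The mean marker level, centred on 0 over the arrays, was -0.45 to 0.070 with vehicle and -0.13 to 0.36 with phenylbutazone. Both this mean and the median of 0.15 include Mc2r, which entered the test through its 3 phenylbutazone arrays. Its measured vehicle mean was -6.61, below the floor of -5.58 used for its bound. Nothing is therefore read from the mean marker level or from the median, and the part of adrenal tissue in the level of Acsbg1 was not tested. Erythrocyte markers, 9 of 10 tested and 9 above 0, had a median of 0.48 and centred means of -0.42 to -0.11 with vehicle and 0.41, -0.16 and 0.60 with phenylbutazone, and their part in the results was not tested. Adipocyte markers had a median of -0.20 over 6 of 8, with centred means of 0.070 to 0.22 and of -0.76 to 0.40, overlapping between the groups. Medians were 0.14 for distal nephron, 0.043 for podocyte, -0.032 for endothelial, 0.059 for immune and 0.27 for glia and nerve markers.

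**Figure D5:**
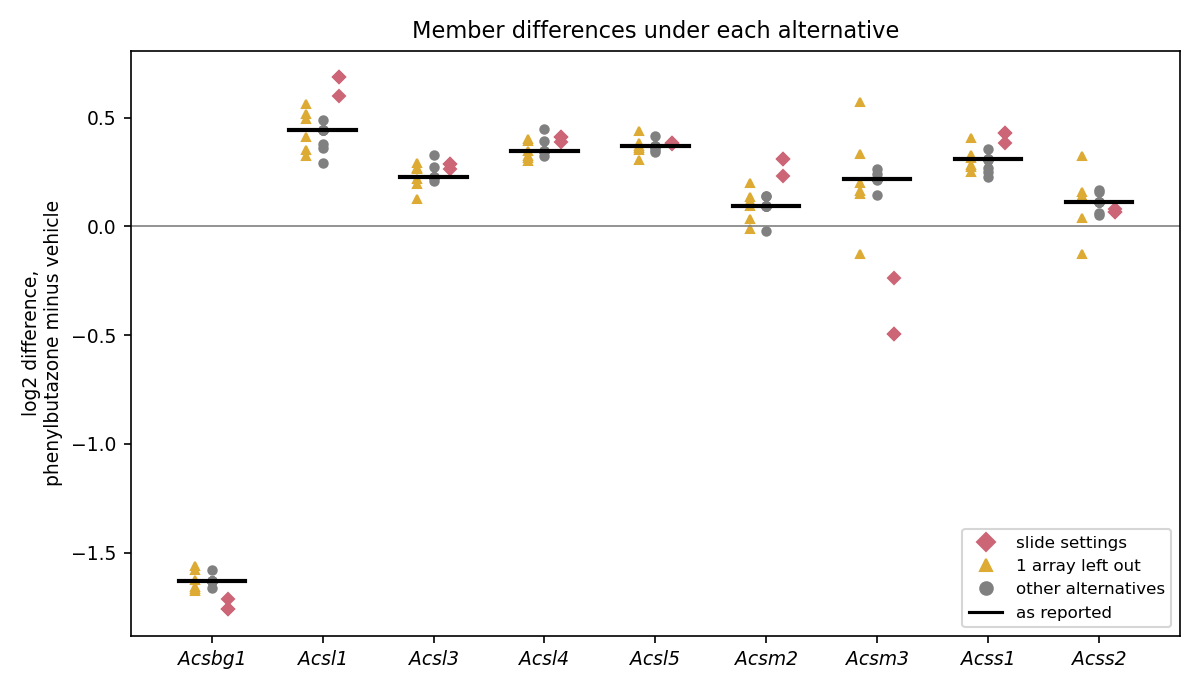
Log2 difference, phenylbutazone minus vehicle, of each tested member as reported (black bar) and under 18 alternatives, with red diamonds for settings on slide, yellow triangles for leaving out 1 array and grey circles for the others. Acsbg1 lies between -1.76 and -1.56, Acsl1 between 0.29 and 0.69, and Acsm2, Acsm3 and Acss2 cross 0. For Acsbg1, with 1 bright probe, the filters, the mean of the probes, the intensity trend and the replicate block cannot move the difference. Slide as a fixed block repeats slide 2 alone.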

How the data were processed

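Renal cortex RNA of 6 rats was measured on one-colour Agilent arrays. Per the submitters' processing notes, images were read with Feature Extraction 10.7. The deposited scanner files hold, per the file headers, a background-subtracted processed intensity for each spot, not normalized between arrays, with other columns of flags for spots well above background, outlying or saturated. The deposited value table holds a ratio: the processed intensity over the array's 75th percentile, to within a factor of 1.001 to 1.003 of the percentile computed here, with medians of 0.105 to 0.110. The layout names build rn4, from which no coordinates are given.

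Of 62976 spots per array 1439 controls were left out, as were 40 probes with an outlier flag; 0 were saturated. The log2 of the 75th percentile was taken off the log2 intensity of each probe. The 41006 probes (66.6%) called well above background by the scanner software on 3 or more of the 6 arrays were tested. Accessions were matched to RefSeq symbols (28193 probes, 45.8%). The probe of highest mean level stood for a gene, giving 29938 genes, 12149 with a symbol. Differences were fitted with limma 3.58.1 in R 4.3.3, two-sided, adjusted by Benjamini-Hochberg over all genes at 0.05, and the fit was tested on simulated data. A gene dim on all arrays of a group has a bound, the bright mean against the dim group's mean of, per array, the probe's value or the lowest value of any probe well above background, whichever was higher. The number of arrays limits the precision.

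The members and gene lists were chosen with earlier results of these data known. Named were all members, the 10 genes described by likeness to Acsbg1, and up to 3 genes of smallest p per pathway list among those whose groups lay apart. Some genes this rule names are not reported here. Marker lists covered proximal tubule, distal nephron, podocyte, endothelium, immune cells, adipocytes, glia and nerve, erythrocytes and adrenal cortex. Alternatives were other scalings and normalizations, the deposited ratio, other filters, the mean of a gene's probes, an intensity trend, slide as fixed or random block, slide 2 alone, a replicate block and leaving out each array. For slide 2 alone, vehicle 3 was assumed to have the spread of the phenylbutazone arrays. Normexp (offset 50) used the median spot signal in place of the mean signal named in the design. A comparison of the protein sequences was not run. Sequences are from RefSeq, GRCr8.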

Additional observations from a re-analysis of the deposited data

How the results depend on the processing

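By limma, 0 genes passed the adjusted threshold as reported and under most alternatives, including the replicate block. Normexp background correction gave 2 (Acsbg1 and an unnamed transcript), quantile normalization 1 (Vtcn1), slide as a random block 1 (Vtcn1), and the intensity trend 8, Acsbg1, Cish and Vtcn1 among them. Vtcn1 was well above background on 0 vehicle arrays and entered the test through the 3 phenylbutazone arrays. Its calls rest on vehicle values that have only a bound, so nothing is read from them. Leaving out 1 array gave 0 to 814 genes, 1 without vehicle 2 (Gal), 2 without phenylbutazone 2 (Prl3d4 and an unnamed transcript), 1 without phenylbutazone 3 (Trim50) and the 814 without vehicle 3, of which 237 were higher and 577 lower and 1 was a member, Acsbg1. Without vehicle 3 each group lies on a slide of its own, so drug and slide cannot be told apart there. Since Acsbg1 was chosen on this contrast, its calls support nothing. Genes of the pathway lists passed in 0 cases under every one of the 18 alternatives. The difference of Acsbg1 was -1.76 with slide as a fixed block, and -1.76 on slide 2 alone, a move larger than its spread, in the same direction. Both settings must give the same difference, because slide 1 holds vehicle arrays only. Members lying apart and lower numbered 2 on slide 2 alone, with Acsm3 beside Acsbg1, and 1 otherwise. Those apart and higher, 5 as reported, numbered 4 with normexp or the mean of the probes, 6 on slide 2 alone and without vehicle 1 or 3, and 5 elsewhere. Over all 29938 genes, 12409 lay apart and higher and 9324 lower on slide 2 alone, against 3634 and 2812 as reported. Apart and higher were 4993 without vehicle 1, 6462 without vehicle 3, 3748 with normexp and 3246 with the mean of the probes. With fewer arrays the groups overlap less often, so nothing is read from these counts. Among members, Acsm3 was -0.24 with slide as a random block, and Acsm2 -0.021 with quantile normalization. Calca was 0.10 with the mean of its tested probes, against -0.42. With the group means taken off, same-numbered arrays correlated at -0.030, 0.011 and -0.074, against -0.099 to 0.10 for differently numbered ones. These values gave no sign that the numbers pair the animals, and they cannot exclude it. The cause of these changes was not tested. With 3 arrays a group, and signals of dim probes shifted on vehicle 3, small differences cannot be resolved here.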
